A study of Homo sapiens with 24 samples.

Results

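The genes described here are 10 that drive a human cell into and out of mitosis: CDK1, the phosphatases CDC25A, CDC25B and CDC25C, the kinases WEE1 and PKMYT1, the APC/C activators CDC20 and FZR1, and the ubiquitin-conjugating enzymes UBE2C and UBE2S. They were chosen by name, with earlier results of these data known, among the 57820 genes counted in each library. All 10 had enough counts to be tested in each of the 13 comparisons, with at least 584 counts of any of them in any library.

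CDK1, bound to cyclin A or cyclin B, is the kinase whose activity starts mitosis. WEE1 and PKMYT1 hold it off by phosphorylating it, the CDC25 phosphatases remove these phosphates, and active CDK1 in turn acts on both sets of enzymes, so that entry into mitosis behaves as a switch. Exit is driven by the anaphase-promoting complex (APC/C), a ubiquitin ligase that marks cyclins and other mitotic proteins for destruction with CDC20 as its activator in early mitosis and FZR1 (CDH1) from late mitosis through G1. UBE2C starts the ubiquitin chains and UBE2S extends them. The transcripts of many of these genes are made mainly in G2 and mitosis, whereas CDC25A also acts at the step from G1 to S phase.

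RNA-seq was performed on 24 libraries, 3 biological replicates in each of 8 groups, all from human osteosarcoma cells without (ID3-KO) or with (WT) an intact gene for ID3, an inhibitor of DNA binding by transcription factors. WT and ID3-KO AID-DIvA cells were left untreated or received mocetinostat, an inhibitor of class I histone deacetylases, for 24 h and then grew for 24 h in medium without it, and WT and ID3-KO U2OS cells were left untreated or received mocetinostat for 24 h. The study's text calls the controls untreated, whereas titles of its supplementary figures name DMSO, so whether they received solvent is not settled here. AID-DIvA is a U2OS line that carries the AsiSI restriction enzyme, and no induction of that enzyme is named for these libraries. The U2OS libraries are taken to be those collected before recovery, so that the stage and the cell line label coincide and cannot be told apart, and the library names of the U2OS samples also contain "DivA". How the knockout was made, the number of clones and the mocetinostat dose of this experiment are not given in the sources used here. In 12 libraries, those of AID-DIvA cells, the title and the treatment entry of the labels name opposite treatments. Groups were taken from the titles, which match the sample names the study itself uses, and every AID-DIvA treatment difference would change sign if the entry were right. The AID-DIvA interactions would then change sign too, and the untreated and recovered AID-DIvA genotype comparisons would trade places. All differences between the stages would take other values.

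Total counts ran from 37878751 to 76906266 per library. Replicate 1 of untreated WT U2OS cells stood apart from its group: its counts differed from those of replicates 2 and 3 by a chi-square per gene of 103 and 91.1, against 4.32 between those replicates and at most 27.3 in any other pair, so the members' differences that rest on it are given with and without it. To a lesser degree, replicate 1 also differed most from the others in both recovered AID-DIvA groups. Its chi-square was 20.1 and 26.9 in ID3-KO cells, against 4.57 between replicates 2 and 3. In WT cells it was 13.5 and 17.1, against 2.79. ID3 was lower in ID3-KO than in WT cells in all 4 comparisons of the genotypes, with log2 differences of -0.56 and -0.89 in untreated and in treated and recovered AID-DIvA cells and of -1.03 and -1.21 in untreated and treated U2OS cells (edgeR adjusted p at most 0.00651), while transcript counts remained in the knockout, between 29.1 and 67.1 CPM (counts scaled to equal library size). Of 8 osteoblast and mesenchymal markers, COL1A1, SPARC, VIM and RUNX2 were present in every library at 11.8 CPM or more, whereas SP7 and BGLAP stayed below 0.7 CPM and COL1A2 below 1.4 CPM. ALPL ranged from 0.616 to 7.01 CPM. The summed level of 6 measured markers of other cell types (PTPRC, CD3E, EPCAM, CDH1, CDH5, ALB; PECAM1 was not found) was 6.18 to 7.97 CPM in untreated libraries and 8.17 to 11.5 CPM in treated ones, with EPCAM the largest contributor, CD3E and ALB at 0.041 CPM or less and PTPRC at 0.411 CPM or less. Their part in the treatment differences was not tested. In bulk RNA, fewer cells in G2 or mitosis and less RNA of a gene per cell cannot be told apart, which holds for every result given here.

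The promoters of the members are shown because many of the genes moved together after recovery. RefSeq promoters of 300 bases (250 before the start and 50 from it on; table built on GRCh38.p14, placed here on GRCh37 by exact match) were found for 7 of the 10 genes, and WEE1, PKMYT1 and UBE2C were not in the table. Capitals mark every match, on either strand, to the CHR element TTTGAA, the CCAAT box, and the E2F site in the forms TTTCGCGC and TTTGGCGC. Matches on the minus strand read TTCAAA and ATTGG. None of these motifs overlapped another in the 5 sequences printed.
CDK1 (chr10:62537986-62538285, plus strand): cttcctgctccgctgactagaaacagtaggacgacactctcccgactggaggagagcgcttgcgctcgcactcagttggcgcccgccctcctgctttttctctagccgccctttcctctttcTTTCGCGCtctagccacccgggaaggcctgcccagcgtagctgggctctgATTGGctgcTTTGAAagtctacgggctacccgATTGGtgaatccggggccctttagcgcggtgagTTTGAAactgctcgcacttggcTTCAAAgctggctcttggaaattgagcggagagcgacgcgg
CDC25C (chr5:137667444-137667743, minus strand): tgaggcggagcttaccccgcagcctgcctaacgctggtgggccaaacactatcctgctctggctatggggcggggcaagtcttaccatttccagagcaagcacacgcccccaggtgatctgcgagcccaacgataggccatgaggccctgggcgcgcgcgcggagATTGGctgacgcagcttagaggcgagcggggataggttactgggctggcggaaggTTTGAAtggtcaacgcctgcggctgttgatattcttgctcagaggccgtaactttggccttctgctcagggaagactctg
CDC20 (chr1:43824402-43824701, plus strand): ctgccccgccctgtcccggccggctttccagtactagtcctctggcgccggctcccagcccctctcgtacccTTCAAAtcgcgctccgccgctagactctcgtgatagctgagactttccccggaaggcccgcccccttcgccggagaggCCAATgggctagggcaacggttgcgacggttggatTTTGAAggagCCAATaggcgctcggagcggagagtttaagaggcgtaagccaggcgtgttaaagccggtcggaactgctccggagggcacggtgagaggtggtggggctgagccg
CDC25B (chr20:3776707-3777006, plus strand): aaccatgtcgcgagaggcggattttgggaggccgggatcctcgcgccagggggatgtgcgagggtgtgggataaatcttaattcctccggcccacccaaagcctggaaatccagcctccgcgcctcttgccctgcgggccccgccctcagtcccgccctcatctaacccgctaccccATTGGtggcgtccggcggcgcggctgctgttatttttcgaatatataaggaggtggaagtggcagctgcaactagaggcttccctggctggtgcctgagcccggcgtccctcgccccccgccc
CDC25A (chr3:48229858-48230157, minus strand): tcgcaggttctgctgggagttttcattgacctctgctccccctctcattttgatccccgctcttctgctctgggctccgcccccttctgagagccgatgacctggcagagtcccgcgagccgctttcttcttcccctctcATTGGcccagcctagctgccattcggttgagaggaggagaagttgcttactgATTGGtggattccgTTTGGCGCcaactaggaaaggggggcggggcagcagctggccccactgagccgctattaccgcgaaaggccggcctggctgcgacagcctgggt

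TTTGAA was present in 4 of the 7 promoters (CDK1, CDC25C, CDC20 and FZR1), against 15.2% of the 35116 promoters in the table. In CDC25C it began 30 bases before the start and in CDK1 its copies began 69 and 13 bases before the start and, on the minus strand, 10 bases into the transcript. CCAAT was present in 6 of 7 (all but FZR1), against 34.6% of all promoters. An E2F form was found in CDK1 (TTTCGCGC, in 0.515% of all promoters) and in CDC25A (TTTGGCGC, in 0.652%). Of the 3 CDC25 genes, whose levels took different courses, CDC25C held both TTTGAA and CCAAT, CDC25B a single CCAAT, and CDC25A 2 CCAAT and an E2F form. The single CCAAT of UBE2S began 191 bases before the start and the single TTTGAA of FZR1 226 bases before it. A match is a string of letters in this window and says nothing about binding.

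Compared per transcript length, as the TPM values deposited by the authors, CDC20, UBE2S and UBE2C of mitotic exit were the most abundant members. FZR1, which also acts in mitotic exit, had a lower mean than CDC25B and CDK1 in every group. CDC20 had the highest mean in 6 of the 8 groups and UBE2S in both treated U2OS groups, where it reached 1416 ± 181 TPM (SD, n = 3) in ID3-KO and 1063 ± 73.2 TPM in WT cells. In untreated AID-DIvA cells, CDC20 stood at 813 ± 12.8 TPM in WT and 823 ± 65.2 TPM in ID3-KO cells. UBE2C was the third in all 8 groups, with means from 183 to 345 TPM, and CDC25B and CDK1 followed it, with means from 92.3 to 199 and 108 to 170.2 TPM. PKMYT1, CDC25A and FZR1 lay close together, from 35.8 to 65.2, 34.5 to 50.9 and 30.3 to 46.9 TPM, and their order changed between groups. CDC25C and WEE1 had the lowest means in every group, from 14.4 to 35.5 and 13.7 to 29.8 TPM. Neighbours in this order whose libraries overlapped were CDC20 and UBE2S in 3 groups (both ID3-KO AID-DIvA groups and untreated WT U2OS), CDK1 and CDC25B in the treated ID3-KO groups of both lines, and PKMYT1 and CDC25A in 5 groups. CDC25A and FZR1 overlapped as neighbours in 3 groups, PKMYT1 and FZR1 in untreated WT U2OS, and FZR1 and CDC25C in untreated ID3-KO AID-DIvA and treated ID3-KO U2OS.

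**Figure D1:**
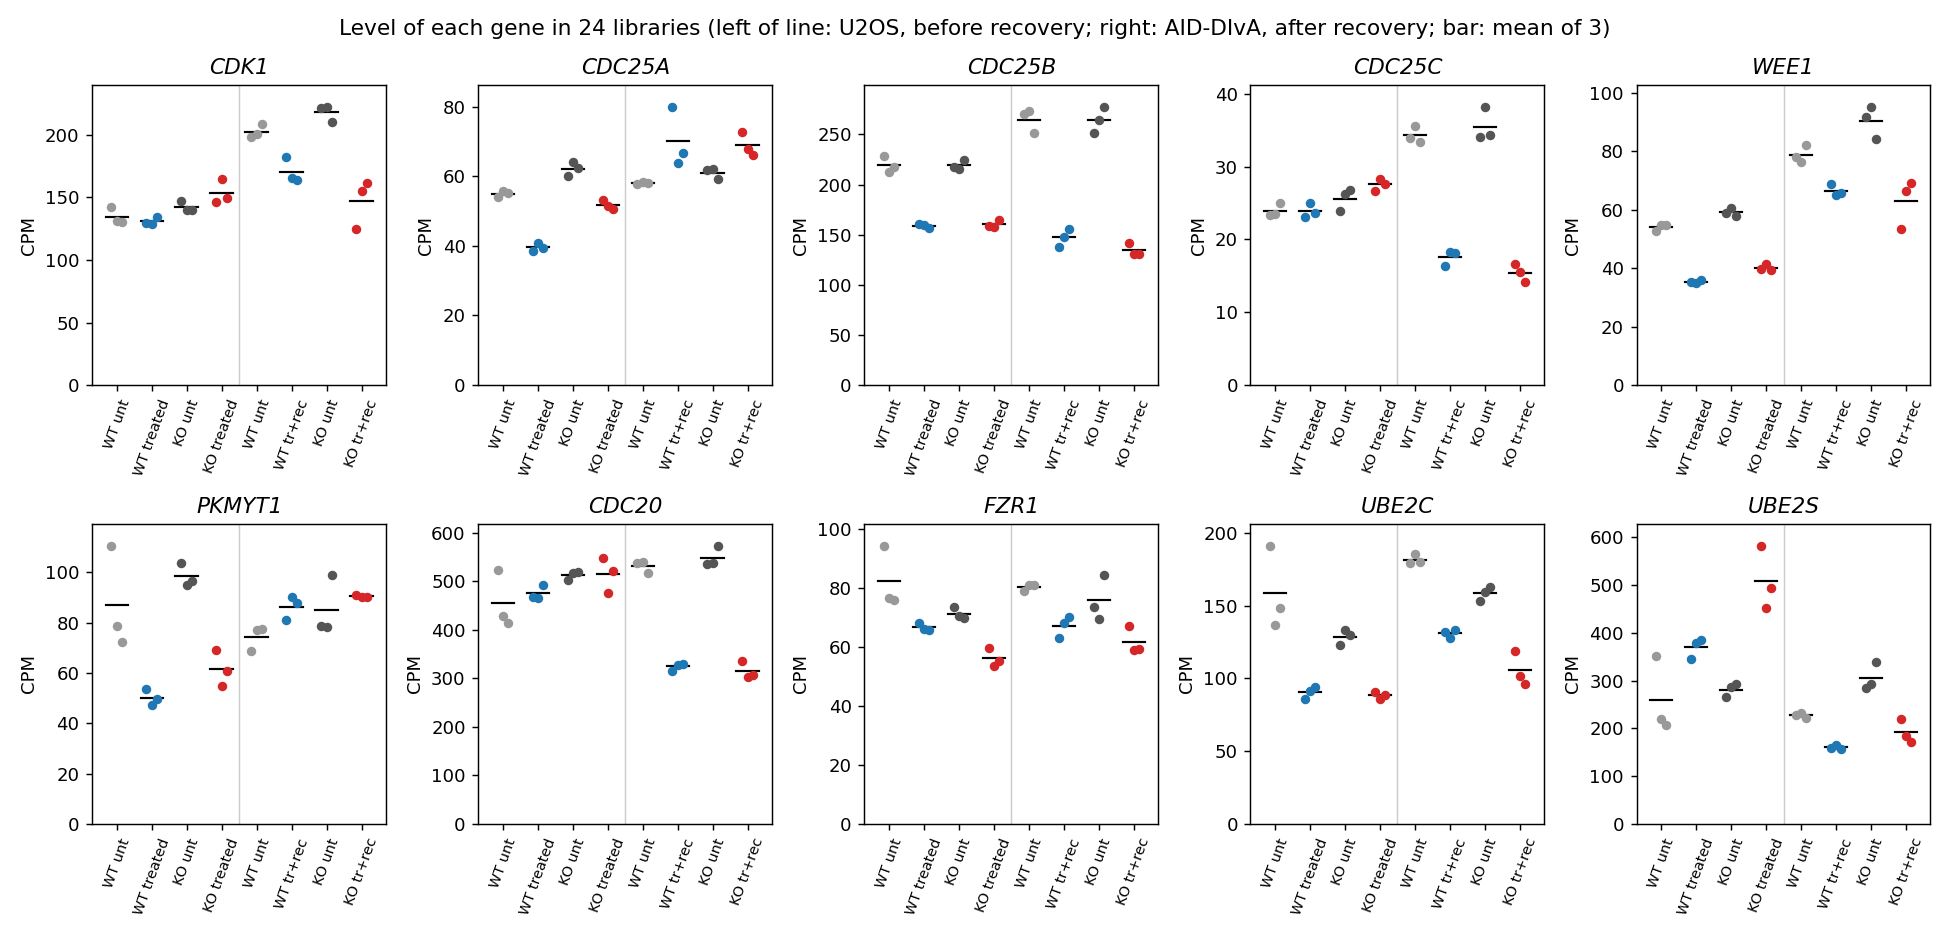
CPM of each of the 10 genes (vertical axis, starting at 0) in the 24 libraries, with a point per library and a bar for the mean of 3, U2OS groups to the left of the grey line and AID-DIvA groups to its right, untreated in grey, treated WT in blue and treated ID3-KO in red. Replicate 1 of untreated WT U2OS is the high grey point of PKMYT1, CDC20, FZR1, UBE2C and UBE2S, and the recovered groups of CDC25C lie below 19 CPM against more than 33 CPM untreated.

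After 24 h of mocetinostat and 24 h of recovery, 8 of the 10 genes were lower than in untreated AID-DIvA cells in both genotypes: CDK1, CDC25B, CDC25C, WEE1, CDC20, FZR1, UBE2C and UBE2S. CDC25A was higher in both genotypes, and PKMYT1 was higher in WT cells and not called in ID3-KO cells. Among all genes tested (edgeR quasi-likelihood test, adjusted p below 0.05), 19.9% were lower and 20.2% higher in ID3-KO cells (40.1% in either direction), and 23% were lower and 23.9% higher in WT cells (46.9%). The median log2 difference of the 10 genes was -0.58 in ID3-KO and -0.34 in WT cells, against -0.023 and -0.0005 over all genes tested.

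CDK1 itself (ENSG00000170312.11, chromosome 10, 62538089 to 62554610, plus strand, hg19) stood at 222, 222 and 210.5 CPM in the 3 untreated ID3-KO libraries and at 124, 156 and 161 CPM in the 3 recovered ones. The groups did not overlap, and replicate 1 of the recovered libraries was the lowest. The log2 difference was -0.57 (SE 0.099, adjusted p = 0.00152). In WT cells the untreated libraries held 198, 201 and 209 CPM and the recovered ones 182, 166 and 164 CPM, again without overlap, for a log2 difference of -0.23 (SE 0.046, adjusted p = 0.00113).

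The CDC25 phosphatases, which activate CDK1, split. CDC25C (ENSG00000158402.14, chromosome 5, 137620954 to 137674044, minus strand), a phosphatase of the G2 to M step, showed the deepest fall of the 10 genes in both genotypes. It went from 34.0, 38.2 and 34.3 CPM in untreated to 16.6, 15.5 and 14.2 CPM in recovered ID3-KO libraries, a log2 difference of -1.20 (SE 0.079, adjusted p = 3.09e-06), or 0.434 times the untreated level. In WT cells 33.9, 35.6 and 33.4 CPM untreated compared with 16.4, 18.3 and 18.2 CPM recovered, a log2 difference of -0.94 (SE 0.062, adjusted p = 6.22e-08). It was the only one of the 10 genes called with a log2 difference below -1 in ID3-KO cells, where 2.56% of all genes were. The member closest to that limit on its other side was CDC25B in ID3-KO cells.

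CDC25B (ENSG00000101224.13, chromosome 20, 3767578 to 3786762, plus strand), the phosphatase that acts on CDK1 and cyclin B at the start of mitosis, had 251, 264 and 277 CPM in untreated and 142, 131 and 131 CPM in recovered ID3-KO libraries. Its log2 difference was -0.98 (SE 0.062, adjusted p = 2.62e-06), and the groups were far apart. WT libraries held 270.0, 273 and 252 CPM untreated and 138, 148 and 156 CPM recovered, with a log2 difference of -0.83 (SE 0.053, adjusted p = 4.42e-08).

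CDC25A (ENSG00000164045.7, chromosome 3, 48198636 to 48229892, minus strand), which also serves the entry into S phase, moved the other way. Its ID3-KO libraries held 61.9, 62.1 and 59.3 CPM untreated and 72.8, 67.9 and 66.1 CPM recovered, and its WT libraries 57.7, 58.3 and 58.0 and 79.9, 63.9 and 66.7 CPM. Neither pair of groups overlapped, although replicate 1 of recovered WT cells stood well above the other recovered libraries. The rise was 0.30 (SE 0.066, adjusted p = 0.00236) in WT and 0.17 (SE 0.060, adjusted p = 0.0428) in ID3-KO cells on the log2 scale. The ID3-KO call was lost when recovered replicate 2 or any of the 3 untreated replicates was left out (adjusted p from 0.0793 to 0.124) and with DESeq2 (adjusted p = 0.0516).

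WEE1 and PKMYT1, the kinases that restrain CDK1, also parted. WEE1 (ENSG00000166483.6, chromosome 11, 9595228 to 9615004, plus strand) was at 91.7, 95.2 and 84.2 CPM in untreated and 53.6, 66.6 and 69.1 CPM in recovered ID3-KO libraries, and its log2 difference was -0.51 (SE 0.10, adjusted p = 0.00311). As for CDK1, recovered replicate 1 was the lowest. In WT cells WEE1 went from 77.9, 76.2 and 82.4 to 69.0, 65.1 and 65.6 CPM, a fall of 0.22 (SE 0.046, adjusted p = 0.00141) on the log2 scale.

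PKMYT1 (ENSG00000127564.12, chromosome 16, 3018025 to 3030540, minus strand) held 68.6, 76.9 and 77.4 CPM in untreated and 80.9, 90.0 and 87.6 CPM in recovered WT libraries, without overlap, and rose by 0.23 (SE 0.060, adjusted p = 0.00546) on the log2 scale. In ID3-KO cells the recovered libraries lay at 91.0, 90.0 and 90.2 CPM inside the range of the untreated ones at 78.6, 78.1 and 98.8 CPM, and the difference of 0.084 (SE 0.097, adjusted p = 0.521) was not called. Untreated ID3-KO replicate 3 was the high library, and without it the difference was 0.22 (adjusted p = 0.0225) and was called. PKMYT1 overlaps KREMEN2 and PAQR4 on the opposite strand, and 29.5% of the reads assigned to it with strand lay on the other strand (9.45% for CDC25C).

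CDC20 and FZR1, the activators of the APC/C, both fell. CDC20 (ENSG00000117399.9, chromosome 1, 43824626 to 43828874, plus strand) had 536, 538 and 573 CPM in untreated and 336, 302 and 307 CPM in recovered ID3-KO libraries, a log2 difference of -0.80 (SE 0.060, adjusted p = 7.06e-06). Its WT libraries went from 538, 539.9 and 517 to 316, 328 and 330.5 CPM, a log2 difference of -0.69 (SE 0.041, adjusted p = 2.07e-08). The recovered libraries of both genotypes lay together between 302 and 336 CPM.

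FZR1 (ENSG00000105325.9, chromosome 19, 3506271 to 3538328, plus strand), the activator of late mitosis and G1, changed least among the 8 genes that fell in ID3-KO cells. The untreated ID3-KO libraries held 73.7, 69.6 and 84.3 CPM of FZR1 and the recovered ones 67.0, 59.1 and 59.2 CPM, a log2 difference of -0.30 (SE 0.088, adjusted p = 0.0216). This call was lost without recovered replicate 2 or 3 or untreated replicate 1 or 3 (adjusted p from 0.0559 to 0.0852). WT cells had 79.0, 81.1 and 81.0 CPM untreated and 63.0, 68.3 and 70.2 CPM recovered, and the difference was -0.24 (SE 0.051, adjusted p = 0.00173).

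The E2 enzymes that supply the APC/C with ubiquitin fell in both genotypes. UBE2C (ENSG00000175063.12, chromosome 20, 44441215 to 44445596, plus strand), which starts the chains, was at 153, 159.6 and 163 CPM in untreated and 119, 102 and 96.2 CPM in recovered ID3-KO libraries, a log2 difference of -0.59 (SE 0.076, adjusted p = 2.46e-04). The corresponding WT libraries held 179, 186 and 179.8 and 132, 128 and 133 CPM, a log2 difference of -0.45 (SE 0.040, adjusted p = 9.98e-07). Neither pair of groups overlapped. UBE2S (ENSG00000108106.9, chromosome 19, 55912652 to 55919145, minus strand), which extends the chains, went from 285, 293 and 338 to 219, 184 and 172 CPM in ID3-KO cells, a log2 difference of -0.67 (SE 0.095, adjusted p = 4.43e-04). Its WT libraries went from 227, 233 and 221 to 158, 164 and 157 CPM, a log2 difference of -0.48 (SE 0.043, adjusted p = 9.55e-07), and were the more tightly grouped.

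Before recovery, directly after 24 h of mocetinostat, the same switch genes showed another pattern. CDC25A, CDC25B, WEE1, PKMYT1, FZR1 and UBE2C were lower than in untreated U2OS cells in both genotypes. UBE2S and CDK1 were called higher in ID3-KO and not called in WT cells, a difference between the genotypes whose own test did not pass, and CDC25C and CDC20 were called in neither genotype. Of the 10 genes, 6 were lower and 2 higher in ID3-KO cells, where 34% of all genes were lower and 35.8% higher (69.9% in either direction), and 6 were lower and 0 higher in WT cells, where 22.9% were lower and 26% higher (48.9%). Without replicate 1 of untreated WT cells, 6 were lower and 2 (UBE2S and CDC20) higher in WT cells, where 32.5% of all genes were lower and 33.9% higher (66.4%). With all libraries UBE2S was the 1 gene higher in WT cells at an unadjusted p below 0.05, and DESeq2 called it. At this stage the drug changed most tested genes in ID3-KO cells, so 8 of 10 called is near the background. The median of the 10 genes was -0.30 in ID3-KO and -0.39 in WT cells, against 0.00086 and 0.0058 over all genes.

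UBE2S, the chain-extending E2 of the APC/C, had the largest change of the 10 genes in ID3-KO U2OS cells, from 266, 286 and 292 CPM untreated to 582, 452 and 493 CPM treated. Its log2 difference was 0.86 (SE 0.073, adjusted p = 4.69e-08), or 1.81-fold. In WT cells the untreated libraries held 352, 219 and 207 CPM and the treated ones 346, 378 and 385 CPM. Replicate 1 of the untreated libraries, the library that stood apart, overlapped the treated ones, and the difference of 0.51 (SE 0.20, adjusted p = 0.0668) was not called. Without that library it was 0.79 (SE 0.038, adjusted p = 1.62e-22) and was called.

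UBE2C, the chain-starting E2, went the other way, from 123, 134 and 129.7 to 90.6, 86.0 and 88.2 CPM in ID3-KO cells, a log2 difference of -0.54 (SE 0.046, adjusted p = 3.66e-10). WT libraries held 191, 137 and 149 CPM untreated and 85.5, 91.5 and 93.9 CPM treated, a log2 difference of -0.82 (SE 0.13, adjusted p = 0.00144), and -0.66 without untreated replicate 1. Among the APC/C activators, CDC20 ranged from 503 to 519 CPM untreated and 476 to 549 CPM treated in ID3-KO cells, and its difference was 0.0092 (SE 0.048, adjusted p = 0.878). The WT difference was 0.059 (SE 0.10, adjusted p = 0.674), and 0.17 (SE 0.033, adjusted p = 9.76e-06), called, without the library that stood apart. FZR1 went from 73.6, 70.4 and 69.7 to 59.5, 53.7 and 55.2 CPM in ID3-KO cells, a difference of -0.34 (SE 0.049, adjusted p = 1.63e-06). In WT cells FZR1 went from 94.3, 76.5 and 76.0 to 68.3, 66.0 and 65.8 CPM, a difference of -0.31 (SE 0.10, adjusted p = 0.0403). This WT call was lost when any of the 3 treated libraries was left out (adjusted p from 0.0964 to 0.135), and the difference was -0.19 (SE 0.039, adjusted p = 2.20e-05) without untreated replicate 1.

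Both inhibitory kinases of CDK1 fell before recovery. WEE1 libraries of ID3-KO cells held 58.9, 60.6 and 57.9 CPM untreated and 39.6, 41.4 and 39.5 CPM treated, a log2 difference of -0.56 (SE 0.047, adjusted p = 3.25e-10). For WT cells the values were 52.8, 54.9 and 54.7 and 35.5, 34.9 and 35.8 CPM, and the log2 difference was -0.61 (SE 0.065, adjusted p = 1.72e-04). No treated library of either genotype reached the lowest untreated one. PKMYT1 was at 103.8, 95.03 and 96.6 CPM untreated and 69.0, 54.96 and 60.8 CPM treated in ID3-KO cells, a difference of -0.67 (SE 0.063, adjusted p = 1.20e-08). The WT libraries of PKMYT1 held 110.5, 78.7 and 72.3 and 53.6, 47.4 and 49.6 CPM, a difference of -0.80 (SE 0.16, adjusted p = 0.00451), and -0.59 without untreated replicate 1.

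Of the phosphatases, CDC25A fell from 54.1, 55.8 and 55.1 to 38.6, 40.9 and 39.3 CPM in WT cells, a log2 difference of -0.48 (SE 0.067, adjusted p = 7.44e-04). In ID3-KO cells it fell from 60.1, 64.0 and 62.5 to 53.3, 51.4 and 50.5 CPM, a log2 difference of -0.26 (SE 0.047, adjusted p = 2.80e-05), again without overlap. CDC25B differed by -0.45 (SE 0.042, adjusted p = 2.57e-09) in ID3-KO and by -0.47 (SE 0.070, adjusted p = 9.78e-04) in WT cells, with treated libraries between 156 and 165 CPM. CDC25C, at 23.9 to 26.8 CPM untreated and 26.7 to 28.3 CPM treated in ID3-KO cells, differed by 0.11 (SE 0.056, adjusted p = 0.0967) there and by -0.0049 (SE 0.074, adjusted p = 0.963) in WT cells, and neither difference was called. Without treated replicate 1 of ID3-KO cells it was 0.13 (adjusted p = 0.0457) and was called. The 95% intervals of the differences over all libraries, -0.010 to 0.22 and -0.18 to 0.17, lay above the fall measured after recovery.

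CDK1 stood at 147, 140.2 and 139.8 CPM in untreated and 146, 165 and 149 CPM in treated ID3-KO U2OS libraries, which overlapped. The difference of 0.11 (SE 0.047, adjusted p = 0.0408) was called, but not without untreated replicate 2 or 3 or treated replicate 2 or 3 (log2 differences from 0.062 to 0.13, adjusted p from 0.0588 to 0.161), nor with DESeq2 (adjusted p = 0.0812). In WT cells the CDK1 difference was -0.042 (SE 0.072, adjusted p = 0.66). Without untreated WT replicate 1, the WT differences of CDC25A, CDC25B and WEE1 were -0.49, -0.44 and -0.63 and were called, and those of CDC25C and CDK1 were -0.022 (SE 0.056, adjusted p = 0.749) and -0.00095 (SE 0.035, adjusted p = 0.983) and were not.

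**Figure D2:**
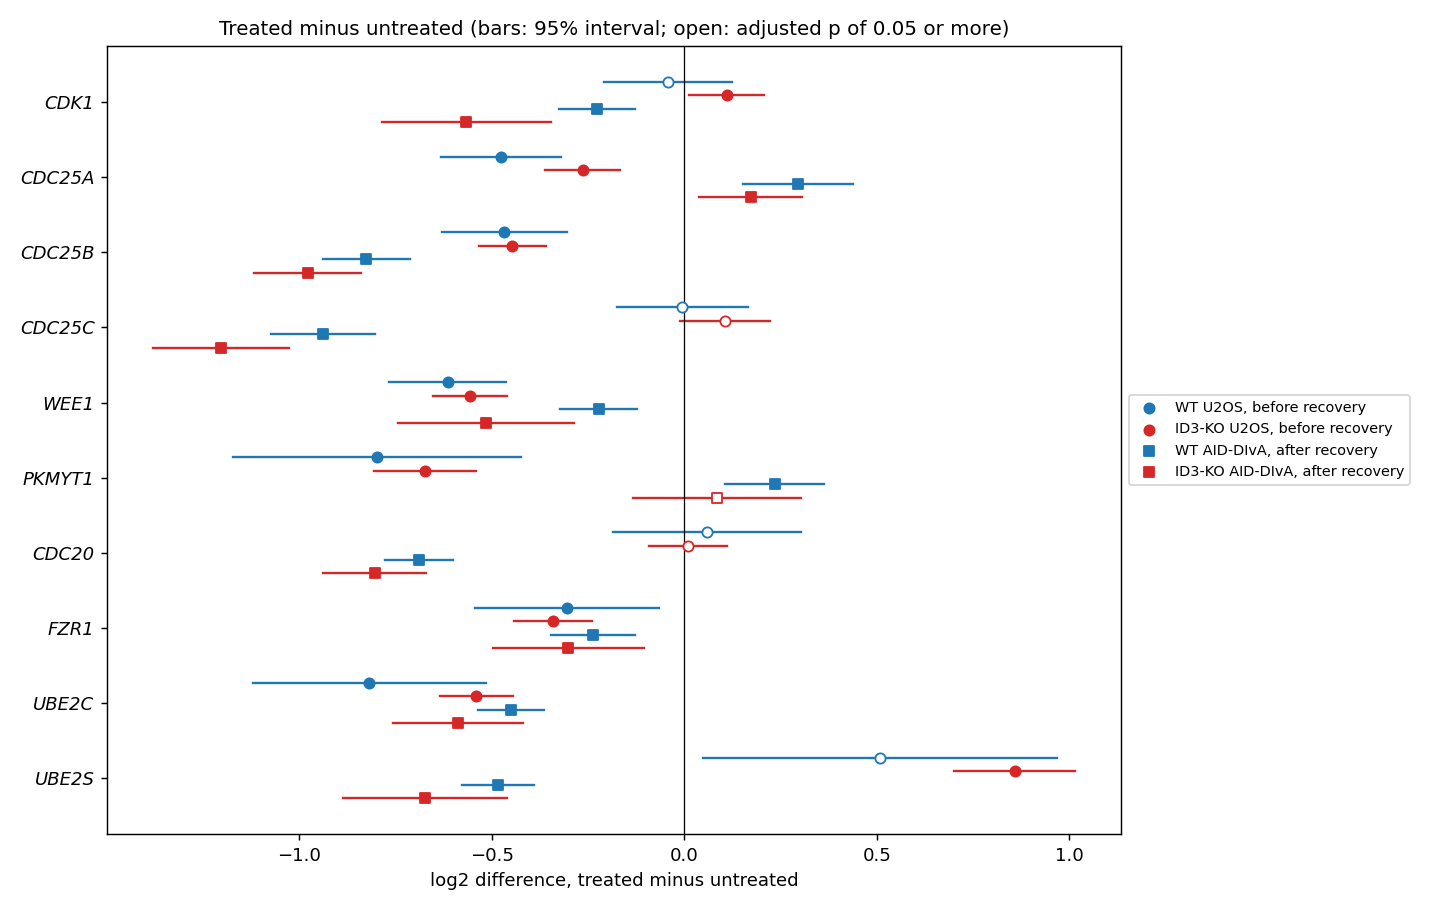
Log2 difference of treated minus untreated cells (horizontal axis) for each gene, with circles for U2OS before recovery, squares for AID-DIvA after recovery, blue for WT, red for ID3-KO, bars for 95% intervals and open symbols for an adjusted p of 0.05 or more. CDC25C, CDC20 and CDK1 lie near 0 before recovery and below 0 after it, CDC25A and PKMYT1 lie below 0 before and above 0 after it, and UBE2S crosses from above to below 0.

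The response after recovery differed from the response before it for 7 of the 10 genes in each genotype, against 52.5% of all genes in ID3-KO and 42.2% in WT cells. UBE2S, CDC25C, CDC20 and CDC25B responded more negatively after recovery in both genotypes, and CDC25A and PKMYT1 more positively. The remaining call was CDK1 in ID3-KO cells and WEE1 in WT cells. In ID3-KO cells the largest shift was that of UBE2S, whose log2 response after recovery minus that before it was -1.54 (SE 0.14, adjusted p = 3.25e-07). Its WT shift was -0.996 (SE 0.22, adjusted p = 0.00214), smaller in size than that of PKMYT1 with all libraries and larger without untreated WT U2OS replicate 1. For CDC25C the shift was -1.32 (SE 0.10, adjusted p = 4.54e-09) in ID3-KO and -0.94 (SE 0.098, adjusted p = 4.97e-06) in WT cells. The activator CDC20 shifted by -0.82 (SE 0.085, adjusted p = 2.03e-07) and -0.75 (SE 0.12, adjusted p = 1.81e-04), and CDC25B by -0.54 (SE 0.077, adjusted p = 9.76e-06) and -0.36 (SE 0.092, adjusted p = 0.00598), in the same order of genotypes.

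In the positive direction, PKMYT1 shifted by 0.75 (SE 0.12, adjusted p = 4.82e-05) in ID3-KO and 1.03 (SE 0.19, adjusted p = 5.45e-04) in WT cells. CDC25A shifted by 0.43 (SE 0.080, adjusted p = 1.71e-04) and 0.76 (SE 0.10, adjusted p = 5.09e-05). CDK1, the kinase these enzymes act on, shifted by -0.69 (SE 0.10, adjusted p = 2.08e-05) in ID3-KO cells, whereas the WT value of -0.19 (SE 0.089, adjusted p = 0.103) was not called. WEE1 shifted by 0.38 (SE 0.079, adjusted p = 0.00148) in WT cells and by 0.032 (SE 0.11, adjusted p = 0.822), not called, in ID3-KO cells. FZR1 differed by 0.035 and 0.062, with 95% intervals of -0.19 to 0.25 and -0.20 to 0.32. UBE2C was not called in either genotype, with an adjusted p of 0.685 in ID3-KO and 0.0561 in WT cells, and its WT shift of 0.36 was called when any of the 3 untreated WT U2OS libraries was left out. Without untreated WT U2OS replicate 1, 9 of the 10 genes passed in WT cells, against 52% of all genes, with CDK1 at -0.24 (SE 0.060, adjusted p = 0.00218) and UBE2C at 0.20 (SE 0.062, adjusted p = 0.00878) added. The WT shifts without it were -1.29 for UBE2S, -0.93 for CDC25C, -0.87 for CDC20 and -0.40 for CDC25B. For PKMYT1, CDC25A and WEE1 they were 0.81, 0.77 and 0.40, and for FZR1, not called, -0.054. These comparisons also compare AID-DIvA with U2OS cells.

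**Figure D3:**
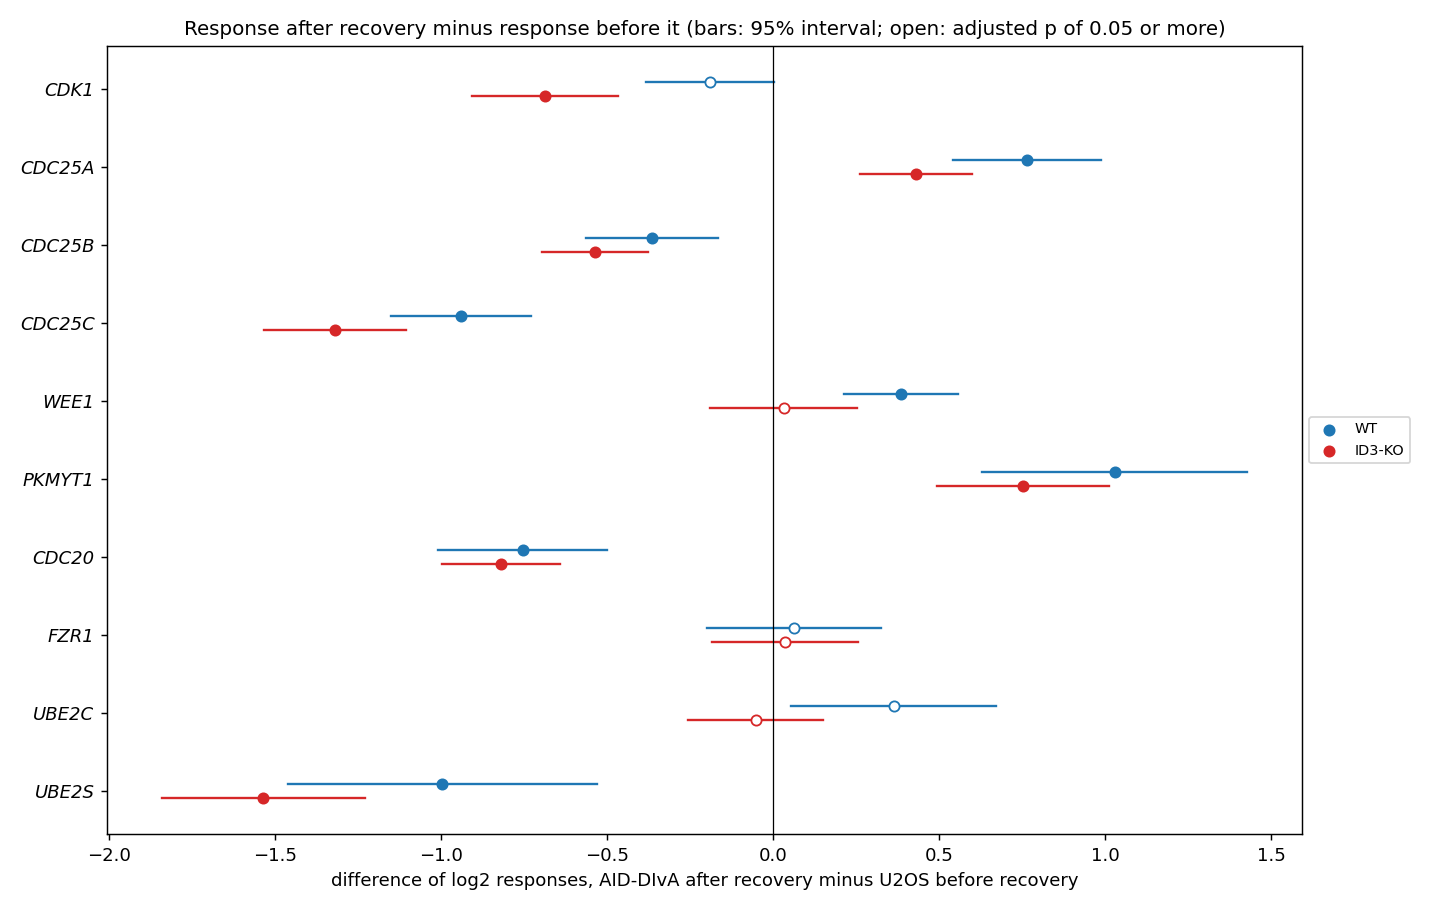
Difference of the log2 response to treatment, after recovery in AID-DIvA cells minus before recovery in U2OS cells (horizontal axis), for each gene, with blue for WT, red for ID3-KO, bars for 95% intervals and open symbols for an adjusted p of 0.05 or more. UBE2S and CDC25C lie farthest to the left in both genotypes, PKMYT1 and CDC25A farthest to the right, and FZR1 near 0.

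The comparisons of genotypes use the libraries of the treatment comparisons again, so they are not independent of them. In untreated AID-DIvA cells, UBE2S and WEE1 were higher and UBE2C lower in ID3-KO cells, that is 3 of 10 genes against 36.7% of all genes. UBE2S was at 227, 233 and 221 CPM in WT and 285, 293 and 338 CPM in ID3-KO libraries, a log2 difference of 0.41 (SE 0.063, adjusted p = 9.89e-05). The groups did not overlap. UBE2C, the partner E2, was at 179, 186 and 179.8 CPM in WT and 153, 159.6 and 163 CPM in ID3-KO libraries, lower by a log2 difference of -0.21 (SE 0.044, adjusted p = 0.00138). WEE1 was at 77.9, 76.2 and 82.4 CPM in WT and 91.7, 95.2 and 84.2 CPM in ID3-KO libraries, a log2 difference of 0.18 (SE 0.049, adjusted p = 0.00761), and its call was lost without untreated WT replicate 2 (adjusted p = 0.0602). Without untreated ID3-KO replicate 3, 5 of the 10 genes were called, with CDK1 at 0.10 (adjusted p = 0.0144) and FZR1 at -0.20 (adjusted p = 6.59e-05) added. The share of all genes called in that fit was not counted.

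In untreated U2OS cells, edgeR called 0 of the 10 genes between the genotypes, against 15.2% of all genes. At an unadjusted p below 0.05 there were 2, against 29.4% of all genes, and DESeq2 called 0. UBE2S shows the spread: the WT libraries were at 352, 219 and 207 CPM and the ID3-KO libraries at 266, 286 and 292 CPM, with a log2 difference of 0.11 (SE 0.20, adjusted p = 0.754). Without WT replicate 1, 8 of the 10 genes were called, 6 higher and 2 lower in ID3-KO cells, against 41.1% of all genes. UBE2S was then higher by 0.40 (SE 0.038, adjusted p = 3.65e-11), PKMYT1 by 0.38 (SE 0.042, adjusted p = 1.19e-09) and CDC20 by 0.28 (SE 0.034, adjusted p = 7.16e-09). CDC25A, CDK1 and WEE1 were higher by 0.16, 0.12 and 0.11, and UBE2C and FZR1 differed by -0.15 and -0.10. CDC25B and CDC25C were not called with or without it.

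With treatment, 8 of the 10 genes were called between the genotypes before recovery and 1 after it, in fits of the 2 groups compared. In fits of all 4 groups of a line, 5 were called before and 5 after recovery. Over all genes, these fits called 4389 of 22647 before and 6419 of 21265 after recovery. In treated U2OS cells, 7 of the 10 genes were higher in ID3-KO than in WT cells and 1 was lower, against 19% of all genes higher and 19% lower (37.9% in either direction). UBE2S, with 346, 378 and 385 CPM in WT and 582, 452 and 493 CPM in ID3-KO libraries, had the largest difference, 0.46 (SE 0.076, adjusted p = 4.65e-04). CDC25A, with 38.6, 40.9 and 39.3 CPM in WT and 53.3, 51.4 and 50.5 CPM in ID3-KO libraries, differed by 0.39 (SE 0.049, adjusted p = 2.06e-07) and PKMYT1 by 0.30 (SE 0.064, adjusted p = 6.66e-04). CDK1, CDC25C and WEE1 differed by 0.23, 0.21 and 0.19 (adjusted p at most 0.00406), all with groups that did not overlap. FZR1 was the gene that was lower, with a log2 difference of -0.24 (SE 0.049, adjusted p = 1.72e-04), with 68.3, 66.0 and 65.8 CPM in WT and 59.5, 53.7 and 55.2 CPM in ID3-KO libraries. CDC20 differed by 0.12 (SE 0.045, adjusted p = 0.0354), with overlapping groups, and its call was lost without any of the 3 WT libraries or ID3-KO replicate 1 or 3 (log2 differences from 0.078 to 0.14, adjusted p from 0.0609 to 0.147). In a fit of all 4 U2OS groups together, the calls of UBE2S (adjusted p = 0.0623), PKMYT1 (adjusted p = 0.156) and CDC20 (adjusted p = 0.407) were lost.

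In treated and recovered AID-DIvA cells, UBE2C was the 1 gene called among the 10 genes, against 23.7% of all genes. It was lower in ID3-KO cells, with 119, 102 and 96.2 CPM against 132, 128 and 133 CPM in WT libraries, a difference of -0.33 (SE 0.075, adjusted p = 0.00873). Leaving out ID3-KO replicate 2 or 3 lost this call (adjusted p = 0.0617 and 0.0501). The estimates of 8 of the 10 genes were below 0, against 52.3% of all genes, with CDK1 at -0.23 (SE 0.098, adjusted p = 0.117) and CDC25C at -0.22 (SE 0.091, adjusted p = 0.116), neither called. Without ID3-KO replicate 1, the library with the lowest CDK1, 4 genes were called, all lower in ID3-KO cells: UBE2C, CDC25B at -0.19 (adjusted p = 0.0455), CDC25C at -0.26 (adjusted p = 0.0429) and FZR1 at -0.20 (adjusted p = 0.0416). Without ID3-KO replicate 3, CDK1 at -0.29 (adjusted p = 0.0411) and UBE2S at 0.33 (adjusted p = 0.014) were called, and without WT replicate 1 CDC25B at -0.21 (adjusted p = 0.038). The shares of all genes called in these left-out fits were not counted. An edgeR fit of all 4 AID-DIvA groups together called 6419 of 21265 genes. Beside UBE2C it called CDK1, CDC25B, CDC25C and UBE2S. Their differences were -0.24 (adjusted p = 0.0306), -0.17 (adjusted p = 0.0456), -0.23 (adjusted p = 0.0277) and 0.23 (adjusted p = 0.0368).

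**Figure D4:**
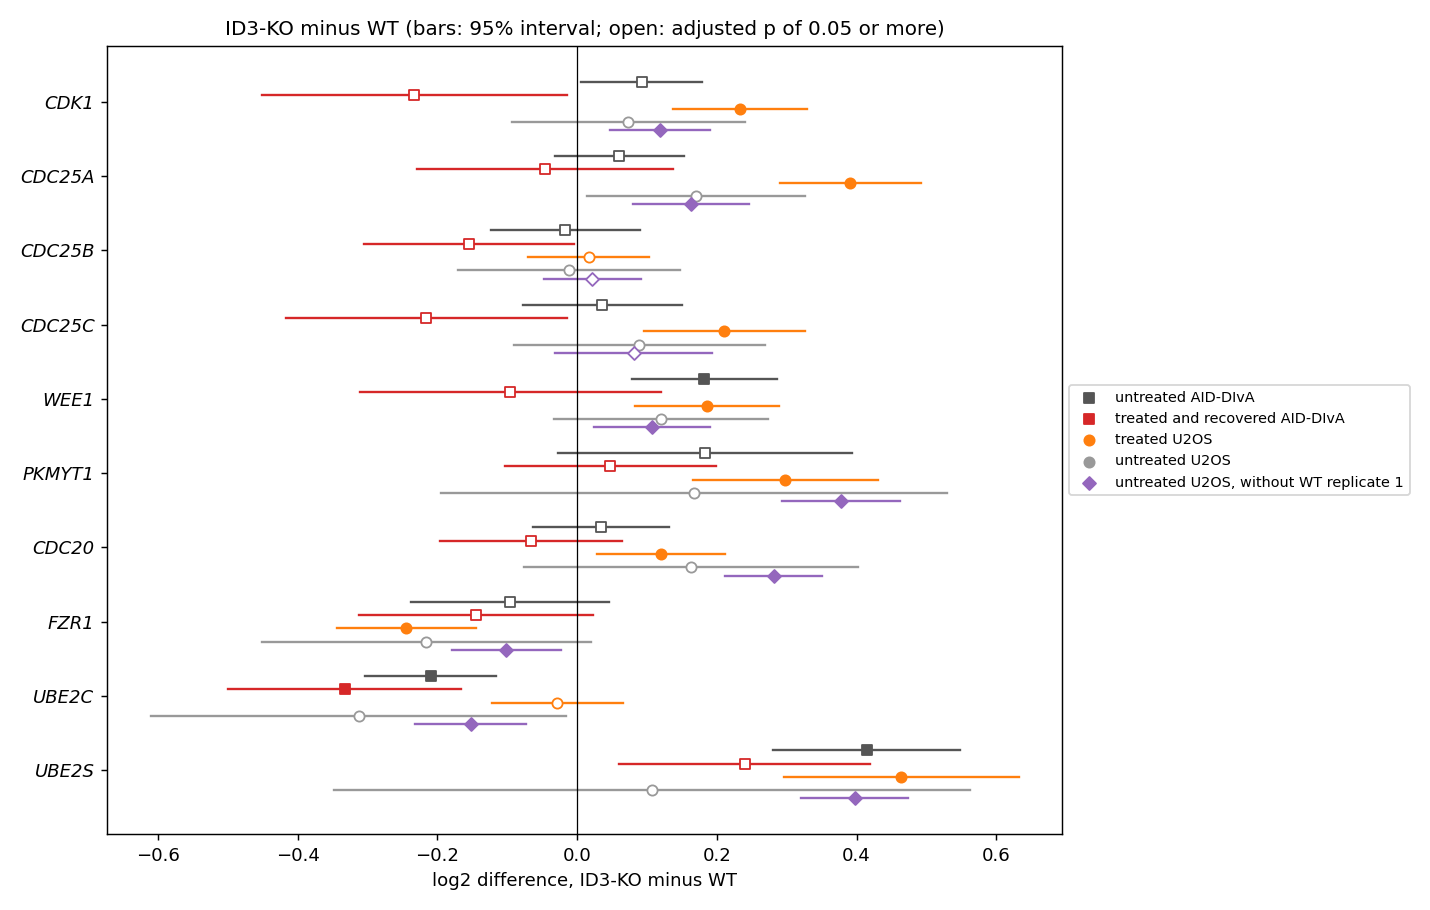
Log2 difference of ID3-KO minus WT cells (horizontal axis) for each gene in untreated and recovered AID-DIvA cells (squares) and in treated and untreated U2OS cells (circles), with diamonds for untreated U2OS without WT replicate 1, bars for 95% intervals and open symbols for an adjusted p of 0.05 or more. The orange circles of treated U2OS lie above 0 for 8 genes and below 0 for FZR1 and UBE2C, and the red squares of recovered AID-DIvA lie below 0 for 8 genes.

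Whether the response to treatment itself differed between the genotypes was tested as an interaction. After recovery edgeR called 0 of the 10 genes, against 1.21% of all genes. At an unadjusted p below 0.05 there were 3 (CDK1, CDC25C and WEE1), against 11.8% of all genes, and DESeq2 called 0. All 10 estimates were negative, that is toward a lower response in ID3-KO cells, against 53.6% of all genes, and the 10 genes share the same cells and libraries. CDK1 had the most negative one, -0.33 (SE 0.11, adjusted p = 0.225), with a 95% interval of -0.57 to -0.091, and it was called in the fit without a filter on low counts (adjusted p = 0.0377). Among the recovered libraries, CDK1 in replicate 1 was the lowest in ID3-KO cells (124 CPM) and the highest in WT cells (182 CPM). A fit without both of these libraries was not run. WEE1 and CDC25C followed at -0.28 (SE 0.12, adjusted p = 0.328) and -0.26 (SE 0.10, adjusted p = 0.303), with intervals of -0.53 to -0.038 and -0.47 to -0.044. The interval of FZR1, -0.28 to 0.17, included 0, as did those of CDC25A, CDC25B, PKMYT1, CDC20, UBE2C and UBE2S.

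Before recovery edgeR also called 0 of the 10 genes, against 2.15% of all genes, and DESeq2 called 0. At an unadjusted p below 0.05 there was 1 (CDC25A), against 13.2% of all genes. The CDC25A interaction was 0.22 (SE 0.077, adjusted p = 0.215), and without untreated WT replicate 1 the interaction was 0.22 (SE 0.065, adjusted p = 0.0224) and was called, against 9.03% of all genes. UBE2S and UBE2C had interactions of 0.35 (SE 0.23, adjusted p = 0.559) and 0.28 (SE 0.14, adjusted p = 0.43), which became 0.063 and 0.12 without that library.

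The interaction after recovery minus that before it was called for 0 of the 10 genes by edgeR, against 0.619% of all genes, and for 0 by DESeq2. At an unadjusted p below 0.05 there were 5 (CDK1, CDC25A, CDC25C, WEE1 and UBE2C), against 9.98% of all genes. All 10 estimates were below 0, against 52.3% of all genes, and 8 of them remained so without untreated WT U2OS replicate 1, the exceptions being CDC20 at 0.068 and FZR1 at 0.10. CDK1 stood at -0.49 (SE 0.14, adjusted p = 0.146), with a 95% interval of -0.79 to -0.19. Without that library it was -0.43 (SE 0.13, adjusted p = 0.0945), and edgeR again called 0 of the 10 genes, against 1.83% of all genes.

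Lists of genes that work with the switch were counted in the same way. The shares of all genes are the background for every list below. After recovery they were 19.9% lower and 20.2% higher in ID3-KO and 23% lower and 23.9% higher in WT cells. Before recovery they were 34% and 35.8% in ID3-KO and 22.9% and 26% in WT cells. Without untreated WT U2OS replicate 1 the WT shares before recovery were 32.5% and 33.9%. Of 8 cyclins, CKS subunits and CDK-activating kinase subunits that serve CDK1, 5 were lower after recovery in each genotype, with 1 higher in WT cells. CCNA2 (cyclin A2), the lowest of the list in ID3-KO cells, differed by -1.004 (SE 0.088, adjusted p = 2.02e-05) there and by -0.71 (SE 0.044, adjusted p = 3.20e-08) in WT cells, whereas CDK7, the catalytic subunit of the activating kinase, had the highest value of the list in ID3-KO cells, -0.067 (SE 0.086, adjusted p = 0.568), and was higher in WT cells by 0.17 (SE 0.056, adjusted p = 0.0235). Before recovery 4 of these genes were lower and 4 higher in ID3-KO cells, and 3 were lower and 2 higher in WT cells, or 8 called without untreated WT replicate 1. The CDK7 call in WT cells was lost without recovered replicate 2 or untreated replicate 1 or 2 (adjusted p from 0.0786 to 0.112).

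Of the 14 subunits of the APC/C itself, 12 were lower before recovery in ID3-KO and 10 in WT cells, against 34% and 22.9% of all genes. After recovery 3 were lower and 1 higher in ID3-KO and 5 lower and 1 higher in WT cells, against 19.9% and 23% of all genes lower. Between the stages the difference was called for 52.5% of all genes in ID3-KO and 42.2% in WT cells. Of the 14 subunits it was called for 6 in ID3-KO cells, 4 with a more positive and 2 with a more negative response after recovery. In WT cells it was called for 8 of them (7 and 1). The medians were -0.26 and -0.33 before and -0.17 and -0.056 after recovery. CDC27, a scaffold subunit, was lowest after recovery at -0.80 (SE 0.13, adjusted p = 0.00107) in ID3-KO and -0.45 (SE 0.048, adjusted p = 5.83e-06) in WT cells. CDC26 was higher at 0.34 (SE 0.096, adjusted p = 0.0173) and 0.22 (SE 0.082, adjusted p = 0.0426), and lower in WT U2OS cells before recovery at -0.50 (SE 0.12, adjusted p = 0.0116). The CDC26 calls did not hold with every library: they were lost in ID3-KO cells without recovered replicate 2 or untreated replicate 3 (adjusted p from 0.0504 to 0.0835), in WT AID-DIvA cells without any library but recovered replicate 3 (log2 differences from 0.14 to 0.26), and in WT U2OS cells without treated replicate 2 (adjusted p = 0.0548). The count of subunits called before recovery in WT cells was 13 without untreated replicate 1 and 4 to 6 without treated replicate 1, 2 or 3, and after recovery in ID3-KO cells it was 2 without recovered replicate 2.

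Among 8 inhibitors of the APC/C and spindle checkpoint genes, 6 were lower after recovery in both genotypes. TTK, the checkpoint kinase MPS1, differed by -1.10 (SE 0.18, adjusted p = 0.00103) in ID3-KO and -0.70 (SE 0.052, adjusted p = 1.62e-07) in WT cells. TRIP13, which takes apart the checkpoint complex, differed by 0.0085 (SE 0.054, adjusted p = 0.916) and was not called in ID3-KO cells, but was higher in WT cells by 0.19 (SE 0.070, adjusted p = 0.042), a call lost without untreated WT replicate 1 or 2 (log2 differences from 0.16 to 0.18) and of 0.089 (adjusted p = 0.0377) without recovered replicate 1. Before recovery 5 of the 8 were lower and 1 higher in ID3-KO cells, and 4 were lower in WT cells, or 7 called without untreated WT replicate 1.

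Of 14 genes whose proteins the APC/C degrades, 12 were lower after recovery in both genotypes, with 1 higher in WT cells. NEK2, a centrosome kinase, differed by -1.34 (SE 0.077, adjusted p = 1.29e-06) in ID3-KO and -1.06 (SE 0.047, adjusted p = 1.63e-09) in WT cells, whereas the replication licensing gene CDC6 was higher in WT cells by 0.34 (SE 0.050, adjusted p = 8.85e-05) and at 0.15 (SE 0.058, adjusted p = 0.0641) in ID3-KO cells. Before recovery 7 were lower and 4 higher in ID3-KO and 8 lower in WT cells, where 11 were called without untreated replicate 1 and 3 or 4 without treated replicate 1, 2 or 3. AURKA, ANLN and CDCA3 of this list had an interaction called after recovery, falling more in ID3-KO cells. AURKA (Aurora A kinase) differed by -1.10 in ID3-KO and -0.73 in WT cells, with an interaction of -0.36 (SE 0.068, adjusted p = 0.0132) that was lost without untreated WT replicate 1 or 3. ANLN (anillin, a protein of the cleavage furrow) differed by -0.92 and -0.53, with an interaction of -0.38 (SE 0.087, adjusted p = 0.0398), and CDCA3, which targets WEE1 for destruction, by -1.10 and -0.78, with an interaction of -0.32 (SE 0.070, adjusted p = 0.0341). Leaving out a single library lost the ANLN call in 9 of 12 cases and the CDCA3 call in 10 of 12.

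Of 9 regulators of CDC25 and WEE1 (checkpoint kinases, ubiquitin ligases and others), 2 were lower after recovery in ID3-KO and 3 in WT cells, against 19.9% and 23% of all genes. BORA, the activator of Aurora A, had the lowest value in recovered ID3-KO cells of any list described here, -1.49 (SE 0.14, adjusted p = 3.47e-05), and differed by -1.13 (SE 0.052, adjusted p = 2.12e-09) in WT cells. CSNK1A1, a casein kinase, was the highest in ID3-KO cells at 0.026 (SE 0.060, adjusted p = 0.754), not called. Before recovery 4 were lower and 3 higher in ID3-KO and 3 lower and 1 higher in WT cells, where all 9 were called without untreated replicate 1. After recovery the count in ID3-KO cells was 1 without recovered replicate 2 or untreated replicate 1 or 2.

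The 7 genes of the Greatwall pathway and the phosphatase PP2A-B55, which counters CDK1, were not called in either genotype after recovery (edgeR). At an unadjusted p below 0.05 there were 1 in ID3-KO and 1 in WT cells, against 49.1% and 53.3% of all genes, and DESeq2 called 0 and 0. In ID3-KO cells the values ran from PPP2CA, the catalytic subunit, at -0.24 (SE 0.12, adjusted p = 0.156) to PPP2R2D, a B55 subunit, at 0.046 (SE 0.065, adjusted p = 0.604). Without recovered replicate 3, 2 of the 7 were called in ID3-KO cells, with PPP2CA at -0.36 (adjusted p = 0.0267), and without recovered replicate 1, 2 were called in WT cells. Before recovery 4 of the 7 were lower in each genotype and 1 was higher in ID3-KO cells.

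Lists of phase genes set the members in the cell cycle. Of 50 G2/M genes of Seurat without the members, 48 were lower after recovery in each genotype, with a median of -0.93 in ID3-KO and -0.65 in WT cells. Before recovery 34 were lower and 9 higher in ID3-KO cells and 24 lower and 2 higher in WT cells, with medians of -0.23 and -0.24, and 42 were called in WT cells without untreated replicate 1. Of 43 S phase genes, 34 in ID3-KO and 31 in WT cells were lower before recovery, and after recovery 9 were lower and 9 higher in ID3-KO and 11 lower and 19 higher in WT cells (in ID3-KO cells 11 or 12 in either direction without any of the untreated replicates). Their medians were -0.38 and -0.59 before and -0.069 and 0.12 after recovery. The S phase counts in recovered ID3-KO cells lay near the shares of all genes, 19.9% lower and 20.2% higher. CDC25A and PKMYT1 were lower before and, in WT cells, higher after recovery, while CDC20 and CDC25C were called after it and not before it. The G2/M list's extremes in recovered ID3-KO cells were PSRC1 at -1.38 and RANGAP1 at 0.083, and those of the S phase list were RRM2 at -0.98 and MCM2 at 0.39.

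The cell type markers moved as well, and their part in the members' changes was not tested. Of 7 osteoblast and mesenchymal markers tested, 3 were lower and 2 higher after recovery in ID3-KO cells, 2 lower and 1 higher in WT cells, and before recovery 4 were lower and 1 higher in ID3-KO and 4 lower in WT cells. Their summed level was 3235 to 4614 CPM in untreated and 2243 to 3030 CPM in treated libraries. SPARC, a matrix protein, differed by -0.45 and ALPL, alkaline phosphatase, by 0.83 in recovered ID3-KO cells. The means of ALPL there were low, 0.683 CPM untreated and 1.21 CPM recovered. RUNX2, the transcription factor of the osteoblast lineage, had interactions of 0.53 (SE 0.095, adjusted p = 0.00933) after and 0.56 (SE 0.13, adjusted p = 0.0451) before recovery. Of 4 markers of other cell types tested, 2 were higher after recovery in ID3-KO and 3 in WT cells, where 1 was lower, and before recovery 2 were higher in each genotype and 1 lower in ID3-KO cells. Their extremes in recovered ID3-KO cells were PTPRC at -0.77 and CDH5 at 2.36. CDH5 differed by 1.68 in recovered WT cells and, before recovery, by 2.30 in ID3-KO and 2.76 in WT cells. These are changes near the floor, as CDH5 was at most 0.912 CPM in any library.

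**Figure D5:**
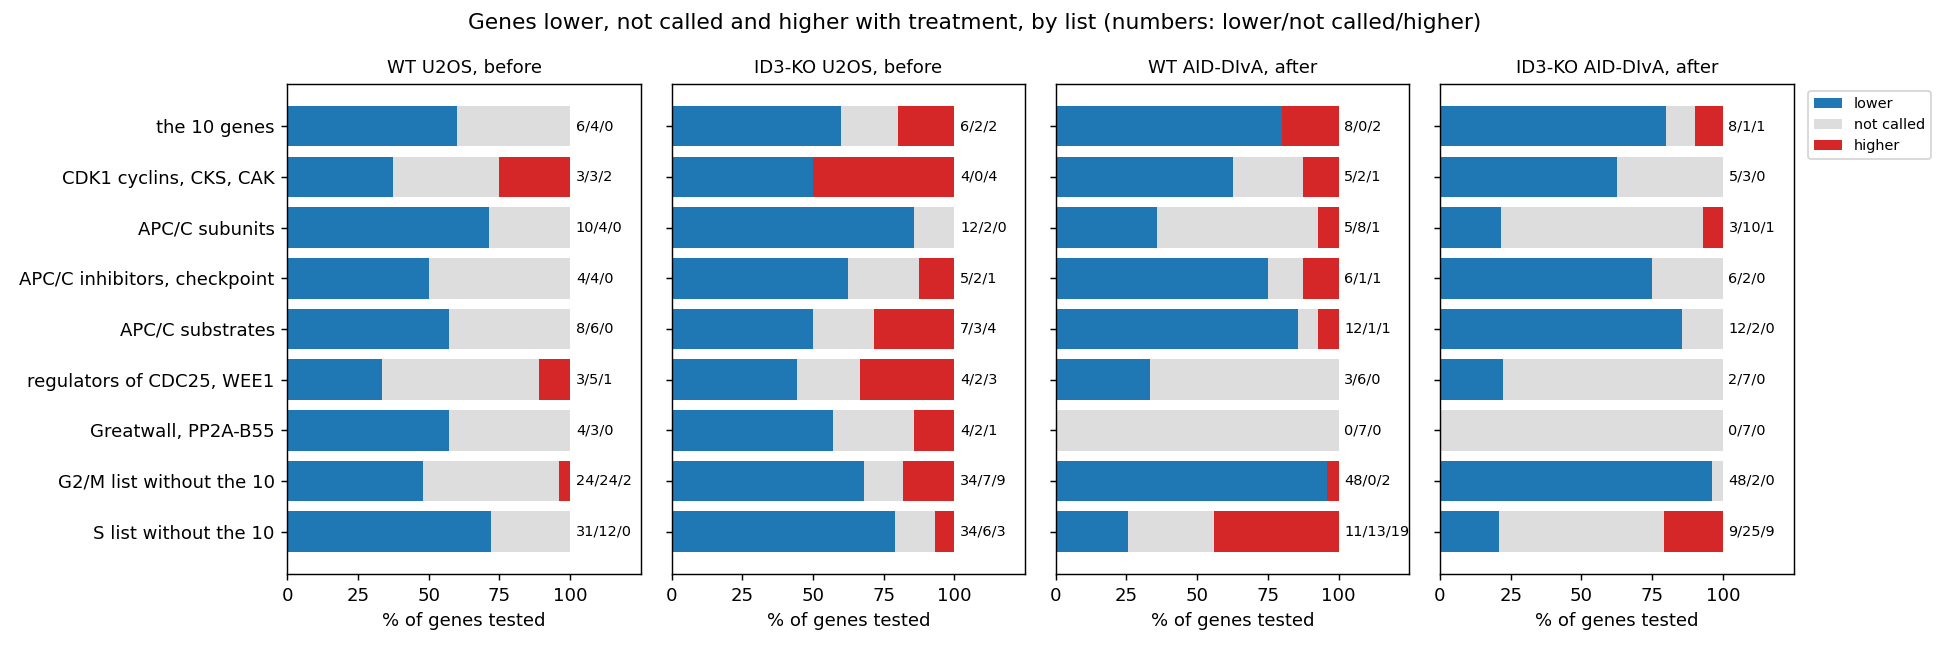
Share of each list's tested genes (horizontal axis, percent) that were lower (blue), not called (grey) or higher (red) with treatment, in 4 panels for WT and ID3-KO U2OS cells before recovery and WT and ID3-KO AID-DIvA cells after it, with the counts beside each bar. The blue part of the G2/M list fills 48 of 50 genes in both panels after recovery, and that of the APC/C subunits fills 12 and 10 of 14 genes before recovery (ID3-KO and WT) and 3 and 5 after it.

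The members were also set against the other genes by the shape of their profile over the 8 groups, as the root mean square difference of group mean log2 CPM after centring each gene, among 15583 genes with a mean of at least 1 CPM. The values are a description, and the 8 groups share drug, line and genotype. The nearest genes were TROAP (0.062) and ZNF75D (0.070) for CDC25B, NDE1 (0.055) and C2orf16 (0.094) for CDC25C, and CTPS1 (0.050) and PNN (0.070) for CDC25A. CDK1 lay nearest to COMMD8 (0.053) and DTD2 (0.056), WEE1 to FAM208A (0.030) and LIN9 (0.051), and PKMYT1 to FEN1 (0.052) and CLIC1 (0.059). For CDC20 the nearest were CDC20P1 (0.042) and AGBL3 (0.071), the first of them a pseudogene of CDC20 whose 673 to 1873 counts per library cannot be told apart from reads of CDC20. FZR1 lay nearest to ZNF214 (0.042) and HSCB (0.050), UBE2C to CD109 (0.066) and VEZF1 (0.080), and UBE2S to ZNF799 (0.079) and HIST2H2BE (0.094).

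Among the members themselves, CDC25A and PKMYT1 were the closest pair (0.14), followed by CDC20 and CDC25C (0.15) and CDC25B and CDC25C (0.21). The inhibitory kinase WEE1 and the E2 enzyme UBE2S were the farthest apart (0.82), and UBE2S and UBE2C, which act on the same chains, differed by 0.74. Reads of UBE2S and of its pseudogene UBE2SP1 (99 to 716 counts per library) may be shared in the same way. FZR1 overlaps MFSD12, UBE2S overlaps RPL28 and CDC25C overlaps FAM53C, all on the opposite strand. With counts of the reverse strand, the only member call that changed was that of CDK1 in ID3-KO U2OS cells (edgeR adjusted p = 0.051). CDK1 overlaps no other counted gene, and 0.012% of its reads assigned with strand lay on the other strand. Reverse-strand counts of PKMYT1 were 121% of its either-strand counts, and none of its calls changed.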

How the data were processed

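RNA was sequenced in 24 libraries. The 8 groups of 3 biological replicates were taken from the sample titles. Per the labels and the study's methods, the authors prepared stranded total RNA, sequenced paired reads of 100 bases, aligned them with STAR to hg19 (GRCh37) in the Roddy workflow and counted them per gene with featureCounts (versions not given in the sources used here). The deposited counts are raw read counts per gene, on either strand and on each strand, and the deposited TPM values were computed by the authors from the counts and gene lengths. TPM served only to order genes within a group.

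From the either-strand counts, each of 13 comparisons (4 of treatment, 4 of genotype, 2 interactions, 2 of stage and 1 difference of interactions) was fitted on its own groups with edgeR 4.0.16 in R 4.3.3 (TMM factors, filterByExpr, robust quasi-likelihood test), and p-values were adjusted by Benjamini-Hochberg over all genes tested. A gene was called at an adjusted p below 0.05. Printed standard errors are the log2 difference divided by the root of the F statistic, CPM values use TMM library sizes, and intervals are at 95%. With 3 libraries a group, p-values set a difference against the spread between these libraries, estimated in part from the other genes.

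The libraries held 37878751 to 76906266 counts, and the members 584 to 38714 counts per library. The code was tested on simulated counts. Alternatives were DESeq2 1.42.0, its size factors in edgeR, library totals, other filters, reverse-strand counts, a replicate block, one fit of all 4 groups of a line, a log2 difference beyond 1, and each library left out. CPM on library totals without TMM factors were added after seeing the data.

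The members and gene lists were chosen with earlier results of these data known. Lists came from textbook roles, and G2/M and S phase genes from Seurat 5.3.0. Text names all 10 members, the gene of each list with the lowest and the highest log2 difference in recovered ID3-KO cells, list genes with a called interaction, ID3, and the 2 genes of nearest profile per member among those with a mean of at least 1 CPM. Promoter sequences were taken from RefSeq and searched on both strands.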

Additional observations from a re-analysis of the deposited data

Results flagged for a closer look

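Results are given here because the response to treatment differed between stages or genotypes by a test of that difference (edgeR, adjusted p below 0.05). Between the stages, after recovery in AID-DIvA cells minus before recovery in U2OS cells, the log2 response in ID3-KO cells differed by -0.69 for CDK1, 0.43 for CDC25A, -0.54 for CDC25B, -1.32 for CDC25C, 0.75 for PKMYT1, -0.82 for CDC20 and -1.54 for UBE2S. In WT cells it differed by 0.76 for CDC25A, -0.36 for CDC25B, -0.94 for CDC25C, 0.38 for WEE1, 1.03 for PKMYT1, -0.75 for CDC20 and -0.996 for UBE2S, and without untreated WT U2OS replicate 1 PKMYT1 was at 0.81 and UBE2S at -1.29. Stage and cell line coincide in these libraries and cannot be told apart.

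Between the genotypes, the log2 response after recovery was lower in ID3-KO cells by an interaction of -0.36 for AURKA, -0.38 for ANLN and -0.32 for CDCA3, while that of RUNX2 was 0.53 after and 0.56 before recovery. The RUNX2 call after recovery held in all alternatives and left-out fits, whereas the call before recovery was lost in 14 of them, the ANLN call in 10, the CDCA3 call in 12 and the AURKA call in 2. Groups of 3 libraries were too small for a test of single outlying libraries.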

How the results depend on the processing

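Of the members' values under other settings, 956 kept direction and call, 15 lost and 19 gained a call and 0 reversed, and of those with a library left out 1152 kept both, 23 lost and 25 gained a call and 0 reversed (edgeR, with DESeq2 among the settings). Signs differed in 55 of these 2190 values, none of them called in either fit. Requiring a log2 difference beyond 1 left 1 member in ID3-KO AID-DIvA treatment, 0 in each of the 3 other treatment comparisons and in genotype comparisons with calls, and 2 (ID3-KO) and 1 (WT) between the stages, where UBE2S, CDC25C and PKMYT1 are the members of that size. Fitting all 4 groups of a line together gave 2 genotype calls in untreated U2OS, 5 in treated U2OS (without UBE2S, PKMYT1 and CDC20) and 5 in recovered AID-DIvA cells. Over all genes these fits called 5658 of 22647, 4389 of 22647 and 6419 of 21265. Without a filter on low counts there were 3 in recovered AID-DIvA cells and 1 interaction after recovery (CDK1), against 5493 of 37663 and 613 of 40758 genes. The cause of these shifts was not tested.

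With each library left out in turn, members called ranged from 7 to 9 (ID3-KO) and 10 to 10 (WT) for treatment after recovery, 7 to 9 and 5 to 8 before it, 2 to 5 and 0 to 8 between genotypes in untreated AID-DIvA and U2OS cells, 0 to 4 and 7 to 8 in recovered and treated ones, 0 to 0 and 0 to 1 for the interactions after and before recovery, 7 to 7 (ID3-KO) and 7 to 9 (WT) between stages, and 0 to 0 for the difference of interactions. Shares of all genes in left-out fits were counted only without untreated WT U2OS replicate 1. With a replicate block, 8 in place of 9 members were called in ID3-KO AID-DIvA treatment and 4 in place of 3 between untreated AID-DIvA genotypes, with equal counts elsewhere. The numbers do not mark a pairing in the labels, and in no comparison did every same-numbered pair correlate above 0.1. In ID3-KO U2OS treatment each library correlated best with its own number, but only at 0.041 to 0.082. Unlike numbers reached 0.403 in ID3-KO AID-DIvA treatment, and no pairing is taken from these values.

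Over all genes, calls differed by more than 1.5 times in untreated U2OS genotypes (3132, and 5658 with all 4 groups), treated U2OS genotypes (8267 and 4389), recovered AID-DIvA genotypes (4759, and 3152 with the block), the interactions (258, with 462 by DESeq2, 613 without a filter and 157 with the block, and 488, with 844 and 775) and their difference (143, with 319 and 293). Library totals without TMM factors, added after seeing the data, moved 35 of 80 member levels by at least 1 SD. Each member had at least 584 counts in each library.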
